A study of Chlorocebus sabaeus with 45 samples.

Results

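The phagocyte NADPH oxidase is the enzyme complex with which neutrophils and monocytes make superoxide from oxygen, and the genes described here encode its subunits. The 5 genes named were CYBA, CYBB, NCF1, NCF4 and RAC2, chosen by symbol. Of the 33994 rows of each expression table, 3 carried one of these symbols (NCF1, NCF4 and RAC2), and 1 more, listed only under the identifier LOC103233451, was matched to CYBA by its NCBI gene ID. CYBB was not analysed here, because no row was matched to it by symbol or gene ID. The 4 matched genes were all among the 18753 genes with enough reads to be tested.

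The membrane part of the oxidase is a heterodimer of the catalytic subunit, encoded by CYBB, and the smaller stabilising subunit, encoded by CYBA. In resting phagocytes the organiser NCF1 and the adaptor NCF4 wait in the cytosol, and on stimulation they are phosphorylated, move to the membrane and join the heterodimer together with the GTP-bound GTPase RAC2. Inherited loss of CYBA, CYBB, NCF1 or NCF4 causes chronic granulomatous disease, in which neutrophils engulf microbes but fail to kill many of them.

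Whole blood was taken from 15 juvenile male vervet monkeys (Chlorocebus sabaeus), each trapped from a different wild troop on St. Kitts, at 3 time points per animal, to follow the blood transcriptome through relocation and quarantine as a psychosocial stressor. The day 0 sample (Tp1) was drawn in the field right after trapping, under ketamine and xylazine. The day 3 (Tp2) and day 14 (Tp4) samples were drawn in quarantine, where each animal was housed singly, under dexmedetomidine and midazolam. Place, housing and sedative all changed between day 0 and the later days, there was no group of animals that was not relocated, and these factors cannot be told apart in any comparison with day 0. The RNA integrity numbers in the study's sample list were also higher on average at each later time point. Animals are numbered 1 to 15 as in the labels, and each comparison was made within animals.

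Depth ranged from 13216275 to 31469332 gene-assigned fragments over the 45 libraries, with medians of 22963964 at Tp1, 22754349 at Tp2 and 22758493 at Tp4. The 20 most abundant genes took a mean share of 10.8% ± 3.54 (SD, n = 15) at Tp1, 14.4% ± 5.48 at Tp2 and 23.1% ± 6.60 at Tp4. Levels are given as deposited, in FPKM, which is a fragment count scaled to gene length and library size and so allows genes of different length to be compared. Changes are log2 fold changes from limma, computed after trimmed-mean (TMM) scaling of the libraries and addition of 0.1 FPKM, with the animal as a block, and p-values were adjusted by the Benjamini-Hochberg method over all 18753 genes. Without the TMM scaling the median gene was lower on day 14 than on day 0 by more (log2 fold change -0.36) than with it (-0.05), so unscaled values and counts are given beside the scaled ones where they differ in call for the subunits, RAC1 and the gene lists.

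Among the 4 subunit genes, NCF1 and NCF4 fell between day 0 and day 14, to 0.491 and 0.530 of their day 0 level, while CYBA and RAC2 did not pass the test. By day 3 NCF4 had fallen to 0.616 of its day 0 level, and NCF1, at 0.639 of it, did not pass. No further change between day 3 and day 14 passed the test in any of the 4 genes. These calls are with TMM scaling. Without it, NCF1 also passed on day 3, CYBA and RAC2 passed on day 14 against day 0, and all 4 genes passed on day 14 against day 3. The proportion of cytosolic organiser and adaptor transcripts to membrane subunit and GTPase transcripts was lower on day 14 than on day 0, as the ratios within libraries given further on show.

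CYBA was the most abundant of the 4 transcripts per unit length. On day 0 its level ran from 161 FPKM (animal 3) over a median of 272 to 503 FPKM (animal 11). On day 3 the lowest, median and highest values were 105, 248 and 580 FPKM, and on day 14 they were 55.7, 199 and 307 FPKM. The 3 time points overlapped widely, although 5 of the 15 day 14 libraries lay below the lowest day 0 value before scaling. After TMM scaling the day 14 level was 0.839 of the day 0 level (log2 fold change -0.25, SE 0.17, 95% interval -0.60 to 0.09, adjusted p = 0.231), lower in 8 and higher in 7 of the 15 animals. This call depended on the scaling. In the unscaled FPKM values CYBA was lower on day 14 in 14 of 15 animals, at 0.639 of its day 0 level (log2 fold change -0.65, SE 0.19, adjusted p = 0.00463), which is -0.28 relative to the median gene of the same unscaled comparison. On day 3 CYBA differed from day 0 by a log2 fold change of -0.15 (SE 0.17, 95% interval -0.49 to 0.20, adjusted p = 0.595).

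NCF1 encodes the cytosolic organiser whose phosphorylation opens it for binding to the CYBA protein. On day 0 its lowest, median and highest levels were 57.6 (animal 5), 101 and 282 FPKM (animal 15). By day 3 they were 21.7, 74.8 and 134 FPKM, and by day 14 they were 21.2, 45.4 and 81.8 FPKM. The 3 time points overlapped. Animals 1, 3 and 5, which began at 74.2, 65.8 and 57.6 FPKM, were the 3 in which the scaled level was higher on day 14. In the unscaled FPKM NCF1 was lower on day 14 in 14 of 15 animals, and only animal 1 was higher. Animal 10, which began at 59.6 FPKM, went to 21.2 FPKM, the lowest day 14 value. Across the 15 animals the day 14 level was 0.491 of the day 0 level (log2 fold change -1.03, SE 0.25, 95% interval -1.53 to -0.52, adjusted p = 0.00117), lower in 12 of them. The call held in each of the 24 alternative settings, with the highest adjusted p (0.0292) where RNA integrity was a covariate. On day 3 the log2 fold change was -0.65 (SE 0.25, 95% interval -1.15 to -0.14), lower in 10 of 15 animals, with an adjusted p of 0.0642. That value lay close to the threshold, and leaving out animal 3, 5 or 14 brought it under (adjusted p = 0.0282, 0.0329 and 0.0416), as did the unscaled FPKM (log2 fold change -0.69, SE 0.23, adjusted p = 0.0461), a minimum mean of 5 CPM (0.0461) and voom (0.0481), in a range over the 24 alternatives of 0.0282 to 0.175. Human genomes hold near-identical pseudogene copies of NCF1, and how reads shared with such copies were assigned here is not given in the sources used. Whether the vervet genome holds such copies was not tested, and the level of this gene is uncertain to that extent.

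NCF4 encodes the adaptor that binds phosphatidylinositol 3-phosphate on phagosome membranes. Its levels spanned 41.1 (animal 5), 76.7 and 193 FPKM (animal 15) as lowest, median and highest on day 0. The corresponding values were 25.9, 59.2 and 103 FPKM on day 3, and 25.3, 35.2 and 72.2 FPKM on day 14. As with NCF1 the time points overlapped, and the highest day 0 values had no counterpart on day 14. The day 14 level was 0.530 of the day 0 level (log2 fold change -0.92, SE 0.22, 95% interval -1.37 to -0.46, adjusted p = 0.00137), lower in 13 of 15 animals (all but animals 1 and 5), and in 14 of 15 (all but animal 1) without scaling. This call too held in each of the 24 alternatives, again with the highest adjusted p (0.0353) where RNA integrity was a covariate. The day 3 fall was of 0.70 on the log2 scale (log2 fold change -0.70, SE 0.22, 95% interval -1.15 to -0.24, adjusted p = 0.0268), lower in 10 of 15 animals. It was lost without animal 2, 4, 7, 11 or 15 (adjusted p = 0.0688, 0.0649, 0.0779, 0.0764 and 0.0605), without the animal block (0.0532) and with RNA integrity as a covariate (0.0629), in a range over the 24 alternatives of 0.0089 to 0.0779.

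RAC2, the Rac GTPase that predominates in blood cells and is also expressed in lymphocytes, was the steadiest of the 4 genes after TMM scaling. Its lowest, median and highest levels were 119, 181 and 286 FPKM on day 0, 117, 221 and 331 FPKM on day 3, and 74.8, 155 and 303 FPKM on day 14. After scaling, the highest library held 1.95 times the RAC2 of the lowest on day 0, against 6.81 times for NCF1, 6.53 times for NCF4 and 4.22 times for CYBA. In the unscaled FPKM of day 14 this was not so, with 4.06 times for RAC2, 3.85 for NCF1, 2.85 for NCF4 and 5.50 for CYBA. The day 14 level was 0.964 of the day 0 level (log2 fold change -0.05, SE 0.09, 95% interval -0.23 to 0.13, adjusted p = 0.657), and the day 3 log2 fold change was 0.09 (SE 0.09, 95% interval -0.09 to 0.27, adjusted p = 0.529). The day 14 interval did not reach the size of the NCF1 or NCF4 estimate, but without TMM scaling RAC2 passed the test (log2 fold change -0.45, SE 0.14, adjusted p = 0.00874), at -0.08 relative to the median gene. Leaving out animal 15 gave a TMM-scaled log2 fold change of 0.01 on day 14 against day 0. Its RAC2 level on day 14 was the lowest before scaling (74.8 FPKM), while after scaling animal 5 was lowest (122, against 131 for animal 15). Animal 15 was also the only one quarantined during a hurricane, and the part of that in its values was not tested. In the RefSeq table of another vervet assembly (mChlSab1.0.hap1), RAC2 and NCF4 lie on the same chromosome with 9 protein-coding genes between them. The gene steadiest after scaling and one that fell are thus near neighbours.

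**Figure D1:**
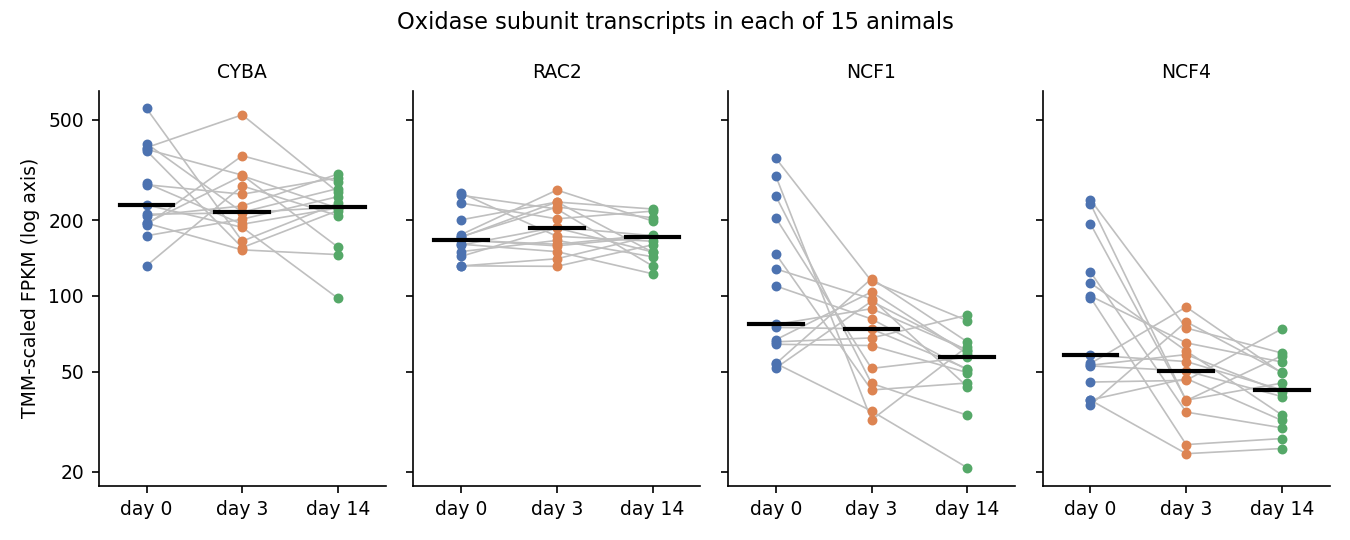
TMM-scaled FPKM on a log axis for CYBA, RAC2, NCF1 and NCF4 in 15 animals on days 0, 3 and 14. Each point is 1 library, grey lines join the samples of an animal and black bars are medians. The high NCF1 and NCF4 values of day 0 are missing on day 14, while RAC2 stays within a narrow band.

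Set against all genes, 1 of the 4 subunit genes was called on day 3 against day 0, where 19% of all genes were called (9.02% lower and 9.99% higher). Without TMM scaling 2 of the 4 were called there, NCF1 and NCF4, both lower, where 6.57% of all genes were called lower and 6.23% higher. On day 14 against day 0, 2 of 4 were called, both lower, where 44.1% of all genes were called and 23.3% were called lower. A count of 2 in 4 is near the share of all genes called, so nothing about the 4 genes is read from it. The median log2 fold change of the 4 genes was -0.59 on day 14, against -0.05 for all genes. On day 14 against day 3, none of the 4 was called by limma, none had an unadjusted p under 0.05 (0 of 4), and limma voom on recovered fragment numbers also called 0 of 4, while 25.4% of all genes were called. The log2 fold changes there were -0.11 for CYBA (95% interval -0.45 to 0.24), -0.38 for NCF1 (-0.88 to 0.12), -0.22 for NCF4 (-0.68 to 0.24) and -0.14 for RAC2 (-0.32 to 0.04). These calls rested on the scaling. Without it all 4 passed, at -0.46 (CYBA, adjusted p = 0.0436), -0.73 (NCF1, 0.0103), -0.57 (NCF4, 0.0237) and -0.49 (RAC2, 0.00606), where 46.1% of all genes were called lower and 4.98% higher, in place of 13.2% and 12.2%. On day 14 against day 0 the unscaled split was 49.9% lower and 9.29% higher, in place of 23.3% and 20.7%.

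**Figure D2:**
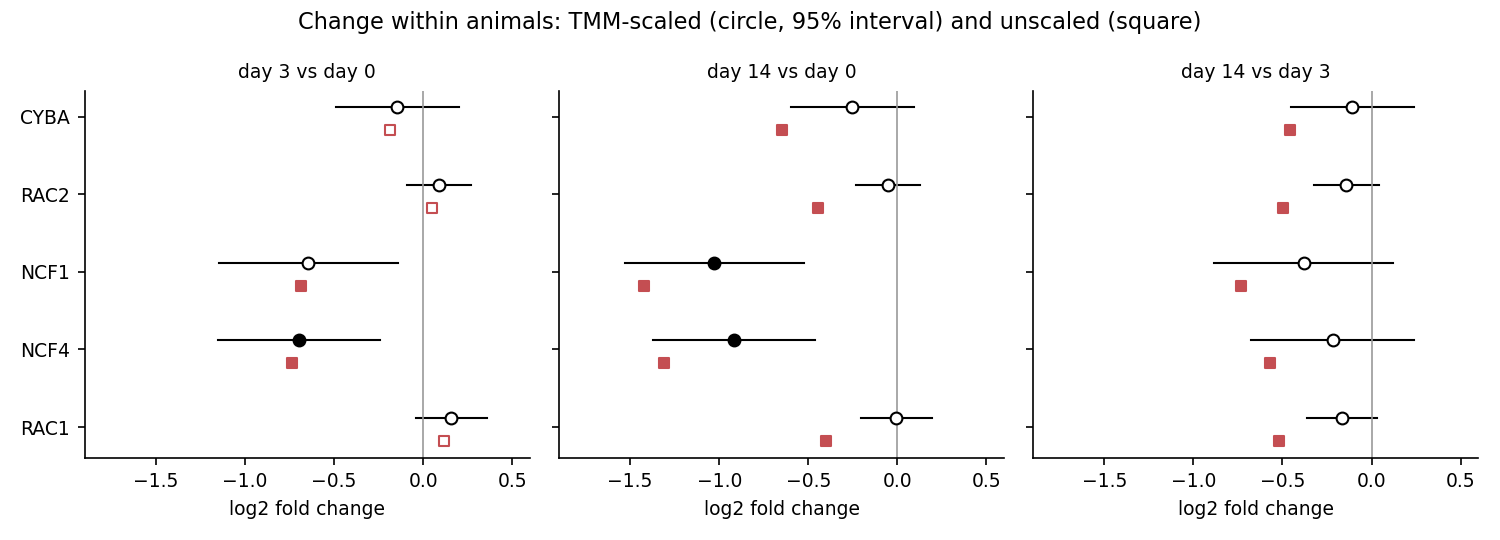
Log2 fold change within animals for CYBA, RAC2, NCF1, NCF4 and RAC1 in the 3 comparisons. Black circles with 95% intervals are TMM-scaled values, red squares are unscaled ones, and filled symbols have an adjusted p under 0.05. NCF1 and NCF4 lie at -1.03 and -0.92 on day 14 against day 0 with scaling, and the squares of all 5 genes lie further left in both comparisons of day 14.

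Ratios between 2 genes of the same library do not depend on the scaling between libraries, apart from the small amount added before the logarithm. Of 18 comparisons (6 pairs of genes at 3 contrasts, exact two-sided sign-flip test over 15 animals, adjusted over the 18), 5 passed, 4 of them on day 14 against day 0. CYBA per NCF1 rose to 1.71 times its day 0 ratio (log2 change 0.77 ± 0.63, SD, n = 15, adjusted p = 0.00549), higher in 13 of 15 animals, and the median ratio went from 2.70 to 4.08. CYBA per NCF4 rose to 1.58 times (0.66 ± 0.60, adjusted p = 0.0143), higher in 12 of 15 animals. NCF1 per RAC2 fell to 0.509 (-0.97 ± 1.03, adjusted p = 0.0168) and NCF4 per RAC2 to 0.549 (-0.86 ± 0.95, adjusted p = 0.0176), lower in 12 and 13 of 15 animals. These 4 are the pairs of a gene that fell with one that did not pass.

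The other 2 pairs did not pass on day 14 against day 0. NCF1 per NCF4 changed by a log2 value of -0.11 ± 0.35 (adjusted p = 0.354) and CYBA per RAC2 by -0.20 ± 0.68 (adjusted p = 0.354). On day 3 against day 0 the only pair past the threshold was CYBA per NCF4 (0.55 ± 0.70, adjusted p = 0.0404), and this lost the threshold without animal 2, 4, 10, 11, 12, 13, 14 or 15, while 2 to 4 pairs passed without animal 3, 5, 6 or 9. On day 14 against day 3 no pair passed (0 of 6 by the sign-flip test, with 2 at an unadjusted p under 0.05, CYBA per NCF1 and NCF1 per NCF4), and 1 to 3 pairs passed without animal 7, 8 or 15. The day 14 against day 0 result stayed at 4 pairs whichever animal was left out.

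**Figure D3:**
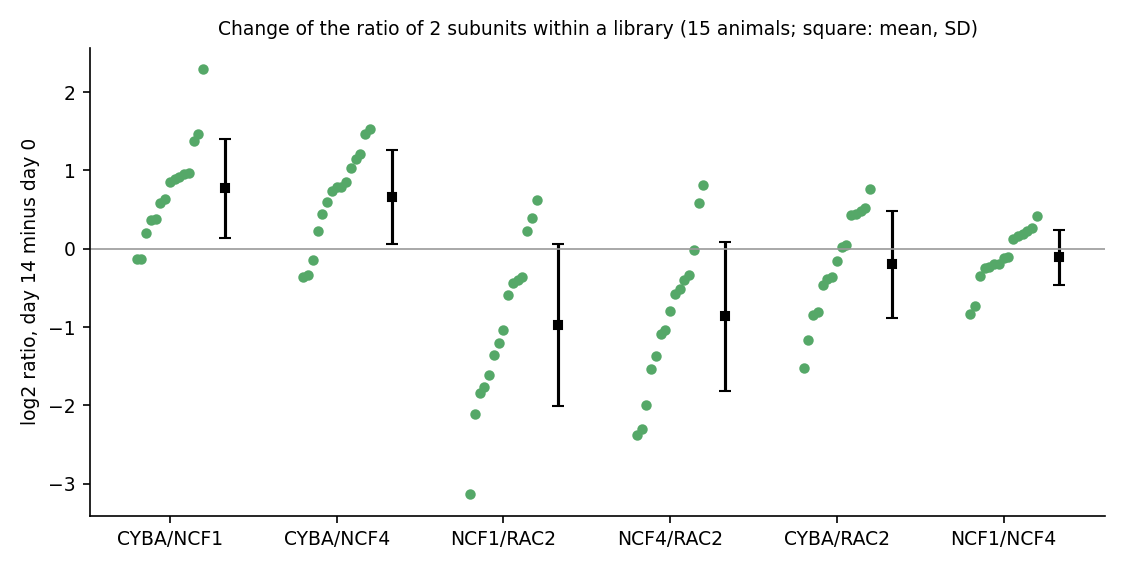
Change from day 0 to day 14 of the log2 ratio of 2 subunit genes within a library, for the 6 pairs. Green points are the 15 animals in order of size, and black squares with bars are means with SD. The first 4 pairs are displaced from 0, upwards for CYBA over NCF1 or NCF4 and downwards for NCF1 or NCF4 over RAC2, and the last 2 straddle it.

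The order of the levels per unit length was CYBA, RAC2, NCF1 and NCF4 by median at each time point, and the ranges of neighbours in this order overlapped on each day. Within animals, CYBA exceeded NCF1 and NCF4 in 15 of 15 animals on each day. Its lead over RAC2 was less regular, with CYBA higher in 14 animals on day 0 and in 12 on days 3 and 14, and ratios from 0.564 to 4.21 on day 0. NCF1 exceeded NCF4 in 14, 14 and 13 animals on days 0, 3 and 14, with median ratios of 1.40, 1.35 and 1.27. On day 0, NCF1 was higher than RAC2 in 4 animals and NCF4 was higher than RAC2 in 1. On days 3 and 14 neither was higher than RAC2 in any of the 15.

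Across animals, NCF1 and NCF4 moved together at each time point. Of 18 correlations between 2 genes (6 pairs at 3 time points, 15 animals each, permutation p-values adjusted over the 18), the NCF1 and NCF4 pair gave the highest on each day. Pearson's r was 0.963 on day 0 (permutation p = 1e-05, the smallest that 100000 resamples can give, adjusted p = 9e-05), with Spearman's rho 0.932 (p = 2e-05, adjusted p = 0.00018). On day 3 r was 0.886 (p = 1e-05, adjusted p = 9e-05) and rho 0.886 (p = 2e-05, adjusted p = 0.00018). By day 14 r was 0.848 (p = 2e-05, adjusted p = 0.00012) and rho 0.864 (p = 7e-05, adjusted p = 0.00042). Without the 2 animals farthest from the NCF1 median r was 0.933, 0.904 and 0.839, so the relation did not rest on the extreme animals.

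CYBA followed NCF1 on day 0 (r = 0.849, p = 1e-04, adjusted p = 0.00045; rho = 0.80, adjusted p = 0.00234; r = 0.840 without the 2 farthest animals) and on day 3 (r = 0.735, p = 0.00137, adjusted p = 0.00411; rho = 0.789, adjusted p = 0.00234; r = 0.839 without them). On day 14 the relation was not past the threshold (r = 0.218, p = 0.413, adjusted p = 0.495; rho = 0.032, adjusted p = 0.914), and r changed sign to -0.310 without the 2 farthest animals. CYBA and NCF4 gave r = 0.832 on day 0 (adjusted p = 0.00072), 0.539 on day 3 (adjusted p = 0.0858) and -0.056 on day 14 (adjusted p = 0.845). The difference between days was not tested. RAC2 passed with another subunit once, with CYBA on day 3 (r = 0.603, p = 0.0161, adjusted p = 0.0414; rho = 0.611, adjusted p = 0.0456; r = 0.634 without the 2 farthest). This did not pass without animal 1, 3, 5, 8, 9, 10, 11, 13, 14 or 15 (10 of the 15 left out in turn, adjusted p from 0.0126 to 0.110 over all 15). On day 0, RAC2 passed with NCF1 without animal 3 or 11 and with NCF4 without animal 11, and on day 14 its r with NCF4 was -0.427 (adjusted p = 0.183).

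**Figure D4:**
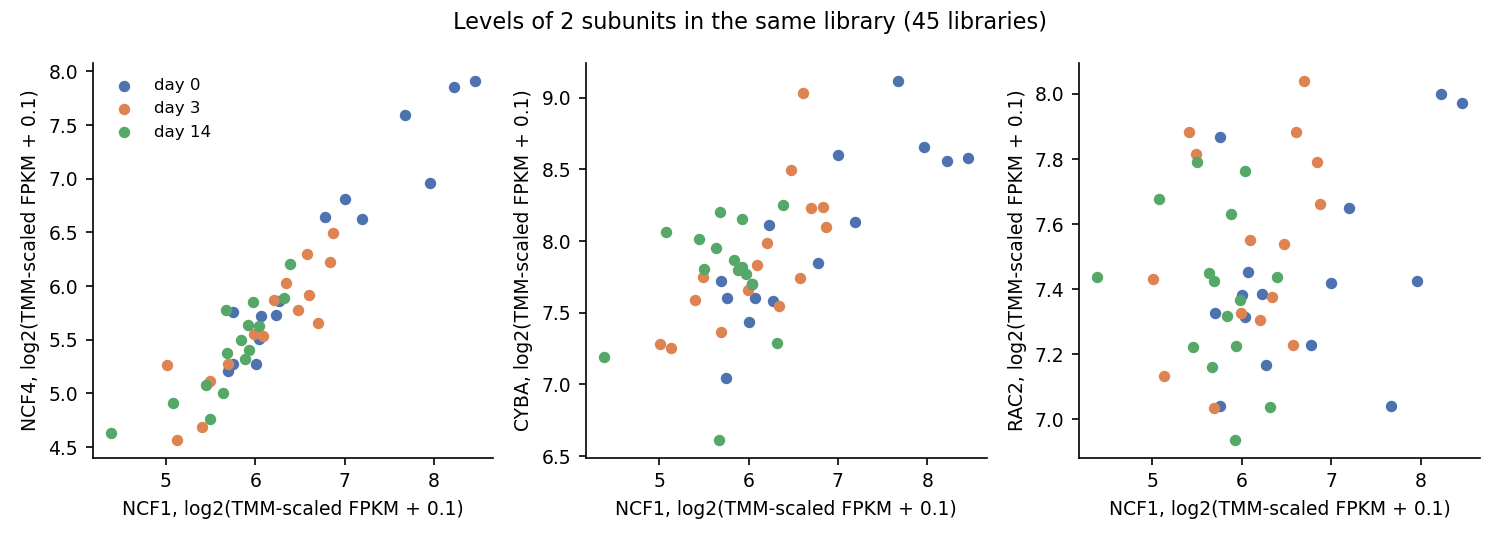
Levels of NCF4, CYBA and RAC2 against NCF1 in the same library, as log2(TMM-scaled FPKM + 0.1), for 45 libraries coloured by day. NCF4 follows NCF1 along a line on each of the 3 days, CYBA follows it on days 0 and 3, and RAC2 is scattered.

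The spread between animals did not pass the test in any of the 4 genes once p-values were adjusted. The mean distance of an animal from the median of its time point, in log2 units, was 0.783 on day 0 and 0.338 on day 14 for NCF1, smaller in 11 of 15 animals (exact sign-flip test, p = 0.0400, adjusted p = 0.560 over 18753 genes). For NCF4 it went from 0.795 to 0.360 (exact p = 0.0170, adjusted p = 0.465). The same test called 0 of 18753 genes in either direction at an adjusted p under 0.05, and 6.3% were narrower and 2.27% wider at an unadjusted p under 0.05.

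Outside the named genes, RAC1, the Rac GTPase expressed in most cell types, had median levels of 67.9, 74.4 and 55.2 FPKM on the 3 days and a day 14 log2 fold change of -0.01 (SE 0.10, 95% interval -0.20 to 0.19, adjusted p = 0.967). Without TMM scaling RAC1 passed on day 14 against day 0 (log2 fold change -0.40, SE 0.11, adjusted p = 0.00335), at -0.03 relative to the median gene, and on day 14 against day 3 (-0.52, adjusted p = 9.79e-04), as RAC2 did. CYBC1, a chaperone of the membrane heterodimer, was not matched to a row and was not analysed here.

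The list of other oxidase components and NOX family paralogs held 7 tested genes of 15. On day 14 against day 0, 1 was called (44.1% of all genes were), and without TMM scaling 1 was called higher and 2 lower (9.29% and 49.9% of all genes). The gene called with scaling was RAP1A, a small GTPase that copurifies with the membrane heterodimer, and it rose from a mean of 115 to 365 FPKM (log2 fold change 2.02, SE 0.28, adjusted p = 1.5e-06), higher in 14 of 15 animals. It was also called on day 14 against day 3 (log2 fold change 1.495, SE 0.28, adjusted p = 5.93e-04), but not on day 3 against day 0 (0.53, SE 0.28, adjusted p = 0.185). The direction of RAP1A was opposite to that of the cytosolic subunits.

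The kinases, exchange factors and Rac regulators that act on the oxidase were called in 1 direction. Of 21 tested, 17 were called lower and 0 higher on day 14 against day 0 (23.3% of all genes were called lower), and 21 lower without TMM scaling (49.9% of all genes), with a median log2 fold change of -0.48 against -0.05 for all genes. Those of lowest adjusted p were VAV3, a Rac exchange factor (-0.92, SE 0.13, adjusted p = 2.55e-06, lower in 15 of 15 animals), MAPK14, the p38 alpha kinase (-0.99, SE 0.16, adjusted p = 1.64e-05, lower in 14), PAK1, a Rac effector kinase that phosphorylates NCF1 (-1.26, SE 0.23, adjusted p = 5.31e-05, lower in 15), and PIK3CG, a phosphoinositide 3-kinase downstream of chemoattractant receptors (-0.63, SE 0.12, adjusted p = 7.3e-05, lower in 15). These 4 and IRAK4 were the 5 genes called lower on day 3 (9.02% of all genes were called lower), and 4 were without scaling (6.57% of all genes). On day 14 against day 3, 8 of the 21 were called lower and 0 higher (13.2% of all genes were called lower), against 21 lower without scaling (46.1% of all genes). The 4 not called on day 14 against day 0 with scaling included AKT1 (0.03, SE 0.07, adjusted p = 0.737), which passed without it (-0.36, SE 0.13, adjusted p = 0.0158).

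Genes that supply NADPH, carry the compensating charge or use the products of the oxidase were called in both directions. Of 12 tested, 3 were called higher and 3 lower on day 14 against day 0, near the shares of all genes called (20.7% higher and 23.3% lower). Without TMM scaling 3 were higher and 5 lower, where 9.29% and 49.9% of all genes were. The catalase gene CAT (log2 fold change 1.07, SE 0.21, adjusted p = 1.25e-04), the chloride-proton exchanger gene CLCN3 (0.83, SE 0.16, adjusted p = 9.71e-05) and the transaldolase gene TALDO1 (0.81, SE 0.22, adjusted p = 0.00398) rose. HVCN1, the voltage-gated proton channel that balances the electrons moved by the oxidase, fell (-0.61, SE 0.14, adjusted p = 7.88e-04, lower in 13 of 15 animals), as did 2 enzymes of the pentose phosphate pathway, PGD (-0.87, SE 0.23, adjusted p = 0.00266) and TKT (-0.57, SE 0.22, adjusted p = 0.0344). On day 3 against day 0, CLCN3 was called higher and PGD lower (9.99% and 9.02% of all genes were). On day 14 against day 3, CAT was called higher and HVCN1 and MPO lower (12.2% and 13.2% of all genes). Without scaling the counts were 2 higher and 1 lower on day 3 against day 0 (6.23% and 6.57% of all genes). On day 14 against day 3 they were 0 higher and 5 lower, near the shares of all genes (4.98% and 46.1%), and CAT did not pass there (adjusted p = 0.252).

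**Figure D5:**
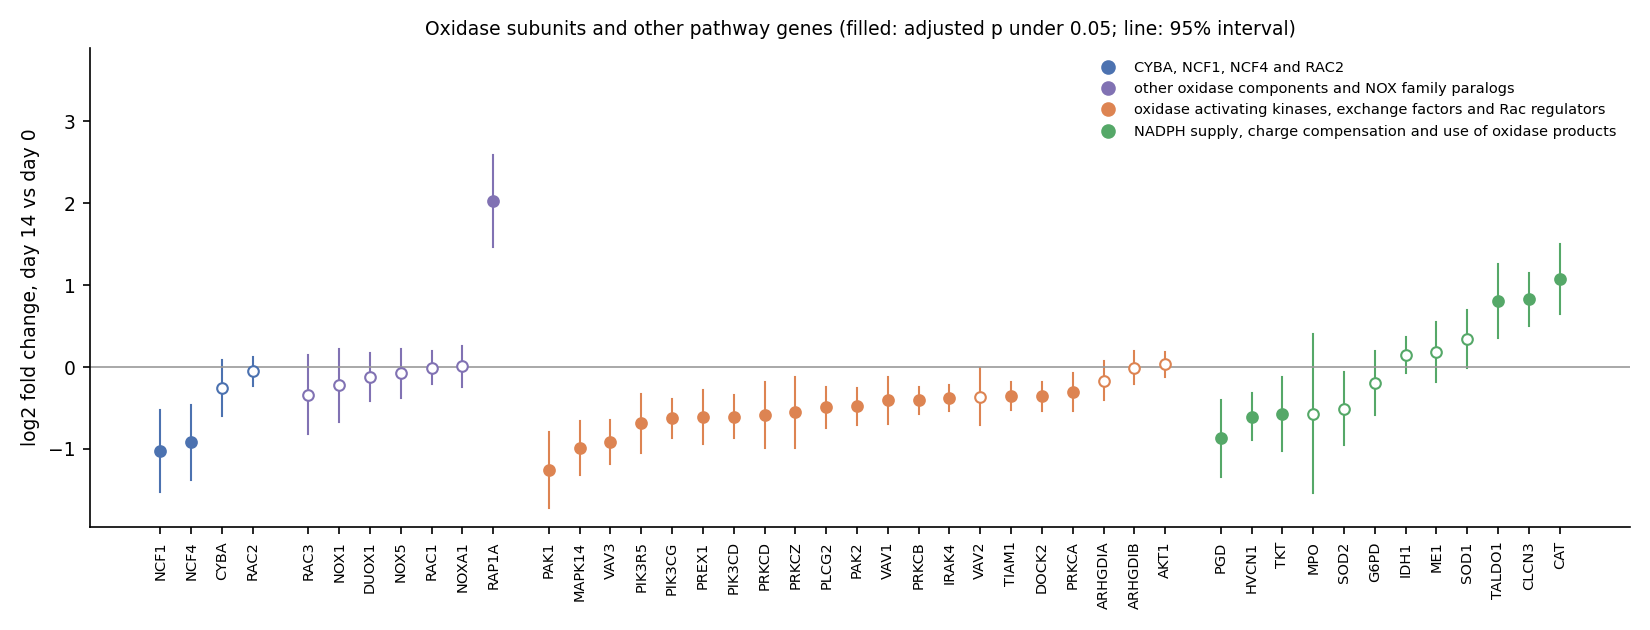
Log2 fold change on day 14 against day 0 with 95% intervals for the 4 subunit genes and the 3 lists of other pathway genes, each in order of size and filled where the adjusted p is under 0.05. In the list of kinases and regulators 17 of 21 genes are filled and below 0, and RAP1A stands at 2.02 among the other components.

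In whole blood, fewer cells of a type and less RNA per cell cannot be told apart. Most of the 14 tested neutrophil markers were called lower in the comparisons in which NCF4 was. Of these, 10 were called lower and 0 higher on day 3 against day 0, 13 lower and 0 higher on day 14 against day 0, and 0 in either direction on day 14 against day 3, with median log2 fold changes of -1.15, -1.39 and -0.27. Without TMM scaling 12, 14 and 6 were called lower and 0 higher. Of all genes, 9.02%, 23.3% and 13.2% were called lower in these comparisons with scaling, and 6.57%, 49.9% and 46.1% without it. Their summed TMM-scaled FPKM ran from 1452 over a median of 3881 to 41654 on day 0, from 582 over 2583 to 6973 on day 3, and from 530 over 2225 to 4257 on day 14. None of the 14 was at 0 throughout a time point, and the most abundant were S100A9 and S100A8, at means of 7345 and 972 FPKM on day 0. The part of these cells in the subunit results was not tested.

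Relative to the summed neutrophil markers of the same library, none of the 4 subunit genes was lower on average on day 14. The sum is unweighted, so S100A9 and S100A8, the most abundant markers, weigh most in it, and the ratio is not a level per neutrophil. Neither gene was among the markers called lower on day 3 against day 0. S100A8 was also not among those called lower on day 14 against day 0. The log2 change of that ratio from day 0 to day 14 was 0.44 ± 0.90 (SD, n = 15) for NCF1, 0.55 ± 0.94 for NCF4, 1.21 ± 1.18 for CYBA and 1.41 ± 1.62 for RAC2, with the ratio higher in 10, 9, 12 and 11 of 15 animals. Against the summed monocyte markers the picture was different, with -0.58 ± 0.68 for NCF1 and -0.47 ± 0.53 for NCF4, lower in 12 and 11 of 15 animals, and 0.20 ± 0.39 for CYBA and 0.40 ± 0.64 for RAC2. Of the 10 monocyte markers, 4 were called higher and 0 lower on day 3 against day 0, and 2 higher (CD300E and CX3CR1) and 3 lower (CD14, CD163 and VCAN) on day 14, while the unscaled counts were 3 higher on day 3, and 1 higher and 4 lower on day 14. The scaled day 14 counts are near the shares of all genes called (20.7% higher and 23.3% lower). On day 3, 9.99% of all genes were called higher with scaling and 6.23% without. The unscaled shares on day 14 were 9.29% higher and 49.9% lower. Between day 3 and day 14, 1 was called higher (CD300E) and 6 lower, where 12.2% of all genes were called higher and 13.2% lower. Without scaling 0 were called higher and 6 lower, where 4.98% and 46.1% of all genes were. The summed TMM-scaled level of these markers was lower on day 14 than on day 3 in 14 of 15 animals (log2 change -0.53 ± 0.43). Their summed level ran from 236 over 390 to 1121 on day 0 and from 164 over 340 to 525 on day 14, with FCN1 and CD14 the most abundant. Of the 9 B cell markers, in cells which also express oxidase genes, 0 were called on day 3 against day 0 (limma) and 4 were called lower on day 14 (BLK, CD22, FCRL1 and PAX5), against 9 lower on day 14 without scaling (23.3% and 49.9% of all genes). On day 14 against day 3, 5 were called lower and 0 higher, and 9 lower without scaling (13.2% and 46.1% of all genes were called lower). The summed B cell level was lower there in 14 of 15 animals.

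Of the 5 genes whose levels most resembled each subunit over the 45 libraries, NCF1 and NCF4 shared HLX and FRAT2. CYBA and RAC2 shared none with each other or with NCF1 and NCF4. Among 10938 other genes with a mean of at least 5 CPM, those with the highest Pearson r to NCF4 were HLX (0.970), FPR1 (0.963), TREM1 (0.956), FRAT2 (0.956) and ARG2 (0.955), with NCF1 at rank 12. For NCF1 they were NCF4 (0.943), HLX (0.941), FRAT2 (0.941), CD300LB (0.938) and LTB4R (0.934). FPR1 and LTB4R are chemoattractant receptors of neutrophils, and TREM1 is an activating receptor of myeloid cells.

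CYBA was most like LMAN2 (0.879), AGPAT2 (0.872), PPP4C (0.860), DOK1 (0.857) and CNPY3 (0.848). In its list NCF1 stood at rank 147 (r = 0.676), NCF4 at rank 407 (0.584) and RAC2 at rank 2213 (0.299). RAC2 was most like SASH3 (0.761), an adaptor of lymphocytes, followed by BCL7B (0.755), PPP1CA (0.754), LYPLA2 (0.747) and RNF220 (0.741), and its rank for NCF1 was 2014 and for NCF4 3448. These correlations are descriptions over libraries that share animals, days and scaling. With the mean of each time point removed, r changed little for the nearest genes (0.927 for NCF1 with NCF4, 0.960 for NCF4 with HLX, 0.882 for CYBA with LMAN2 and 0.749 for RAC2 with SASH3).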

How the data were processed

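Blood RNA was sequenced by the authors as paired 120-bp reads after ribosomal and globin RNA removal with a stranded kit, aligned with STAR to Chlorocebus_sabeus 1.1 and counted per gene with HTSeq (bcl2fastq 2.17 is also named in their processing notes). The deposited values are FPKM for 33994 genes in 45 tables. Whole fragment numbers were recovered from the FPKM steps (100% of 1011768 nonzero values within 0.02 of a whole number) and served for depth, CPM and voom. Of 17250 LOC identifiers, 825 were given a symbol by gene ID. Genes with more than 0.5 CPM in 3 samples were tested with limma 3.58.1 (R 4.3.3) on log2(TMM-scaled FPKM + 0.1), with the animal as a block, at an adjusted p of 0.05. The labels tie the 3 samples of an animal together, and deviations from time point means correlated within animals (mean r 0.328, against -0.0230 between animals). FPKM are shares of a library, so a growing share of abundant transcripts lowers all others unless libraries are rescaled, here by TMM computed in Python. The fits were tested on simulated data. Medians, ratios and sign-flip tests were computed in Python 3.11.15. RNA integrity numbers from the study's sample list were used only as a covariate. Subunits with the pathway and marker lists were chosen with earlier results of these data known. The text names all 4 subunit genes, RAC1, up to 4 rising and 4 falling genes of lowest adjusted p per pathway list, the 2 most abundant markers per list, and the 5 genes most correlated with each subunit. Other genes named in counts of 5 or fewer, and AKT1, were chosen after their values were seen. A further gene of the pathway is not reported here.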

Additional observations from a re-analysis of the deposited data

How the results depend on the processing

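The falls of NCF1 and NCF4 on day 14 against day 0 kept their direction and their side of the threshold in all 24 alternatives, between -1.42 and -0.89 and between -1.31 and -0.83 on the log2 scale. Apart from leaving out animals, 158 comparisons of a result with another setting kept their direction and side of the threshold or, for counts, stayed within 1.5 times the reported count, 14 counts moved further, 9 results gained a call, 2 lost one, and none reversed. Without TMM scaling, 2 of the 4 subunit genes were called on day 3 and 4 on each of the other comparisons, with log2 fold changes of -0.69 for NCF1 on day 3 against day 0, -0.65 for CYBA and -0.45 for RAC2 on day 14 against day 0, and -0.46, -0.73, -0.57 and -0.49 for CYBA, NCF1, NCF4 and RAC2 on day 14 against day 3. All genes called on day 14 against day 3 then numbered 9574, and 5 correlations on day 3 and 2 on day 14 passed.

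Without the replicate block 2261 genes were called on day 3 against day 0 and 2694 on day 14 against day 3, in place of 3565 and 4755. The subunit count on day 3 was then 0, since NCF4 (-0.70, adjusted p = 0.0532) lost its call. The pairing changed no other subunit call. RNA integrity as a covariate gave 4298 genes on day 14 against day 0 and 1942 on day 14 against day 3, and 0 subunits on day 3, with NCF4 at -0.67. A mean of at least 5 CPM and voom each gave 2 subunits on day 3, with NCF1 at -0.65 and -0.66. The cause of these shifts was not tested.

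With each animal left out in turn, 0 to 2 subunits were called on day 3 against day 0, with NCF1 from -0.77 to -0.46 and NCF4 from -0.83 to -0.56. RAC2 on day 14 against day 0 ran from -0.085 to 0.010 and was never called. All genes called on day 14 against day 3 ran from 2927 (without animal 8) to 5260. Ratios past the threshold ran from 0 to 4 on day 3 against day 0 and from 0 to 3 on day 14 against day 3, and correlations on day 0 from 3 to 5 (5 without animal 11) and on day 3 from 2 to 3. Depth did not limit these genes, which held at least 443 fragments in every library.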

Other observations

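Markers of other blood cells gave the following counts, with the part of these cells in the subunit results not tested. Of all genes, 9.99% were called higher and 9.02% lower on day 3 against day 0, and 20.7% higher and 23.3% lower on day 14 against day 0. Without TMM scaling 6.23% were called higher and 6.57% lower on day 3, and 9.29% higher and 49.9% lower on day 14. Of 9 erythroid and reticulocyte markers, 7 were called higher on day 3 against day 0 and 9 on day 14 against day 0, with a median log2 fold change of 2.84 on day 14, and ALAS2 and CA1 were the most abundant (means of 20964 and 2525 FPKM on day 14). Without TMM scaling these counts were 8 and 9. Of 7 NK cell markers, 5 were called higher on day 3 and 6 on day 14 against day 0, with a median of 1.11 on day 14, led in level by GZMB and KLRD1 (4 and 6 without scaling). Of 9 T cell markers, 2 (CD28 and TRAT1) were called lower on day 3 and 3 (CD2, CD3D and LCK) higher on day 14 against day 0, with CD3G and LCK the most abundant, but without TMM scaling 0 were called on day 3, and 0 higher and 5 lower on day 14, near the unscaled share of all genes, so the direction of these calls turns with the scaling. All 7 platelet markers were called higher on day 3 against day 0 (7 without scaling), by a median log2 fold change of 1.48, with PPBP and TUBB1 the most abundant. On day 14 against day 0, 3 of them were called higher (1 without scaling). On day 14 against day 3, 5 were called lower (13.2% of all genes were), and 6 without scaling (46.1% of all genes). Of 8 eosinophil and basophil markers, 0 were called by limma on day 3 and 2 (CPA3 and MS4A2) were called higher on day 14 against day 0, with CPA3 and CCR3 the most abundant (0 and 1 without scaling). CD79B and MS4A1 were the most abundant of the B cell markers.

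The myeloperoxidase gene MPO, whose product uses the hydrogen peroxide that arises from superoxide, was low in these libraries, at means of 0.992, 2.72 and 0.276 FPKM on days 0, 3 and 14. It did not pass the test on day 3 against day 0 (log2 fold change 1.17, SE 0.48, adjusted p = 0.0819) and fell on day 14 against day 3 (-1.74, SE 0.48, adjusted p = 0.00961), lower in 13 of 15 animals. Animal 9 had both the largest rise to day 3 (log2 change 5.19) and the largest fall from day 3 to day 14 (-6.33).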
